A study of Rattus norvegicus with 10 samples.

Results

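The genes described here encode plasma proteins of blood clotting and complement that the liver secretes. They were chosen by symbol from a list of 38 and include clotting factors and fibrinogen chains, their inhibitors, the proteins of fibrin breakdown, and complement proteins from the classical, lectin, alternative and terminal steps. Of the 38 symbols, 37 matched a gene in the deposited tables of 32883 genes, and 36 passed the filter on low values that left 11083 genes for testing. The samples were livers of male rats aged 5 weeks, with 5 samples from the Eisai hyperbilirubinemic rat (EHBR) and 5 from the Sprague-Dawley rat (SD), numbered 1 to 5 in each strain. No treatment is given for either strain. EHBR is a mutant line derived from SD rats that has no Mrp2, the export pump of the bile canaliculus encoded by Abcc2, and is used as a model of conjugated hyperbilirubinemia. Loss of Mrp2 and other differences between the strains cannot be told apart in these samples. Breeding is not stated, nor whether equal numbers share anything, and p-values therefore reflect only the scatter among these samples, which may be technical.

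Clotting factors circulate as inactive precursors, many of them proteases, that activate each other in sequence until thrombin turns fibrinogen into fibrin. A group of them needs vitamin K for the carboxylation that lets them bind membranes, and plasma serpins and protein C hold the cascade in check. Complement is a second protease cascade of plasma, started by antibody complexes through C1 or by sugar-binding lectins through the Masp proteases, which meets at C3 and ends in a membrane pore built from C5 to C9. Hepatocytes make most of these proteins, and several are acute phase proteins.

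Upstream sequence is shown first, because these genes are commonly described as targets of the hepatocyte factors HNF1, HNF4 and C/EBP and of STAT factors. Windows from 250 bases before to 50 bases after the gene start came from RefSeq on GRCr8, and 30 of the 38 symbols had one, with 31 windows in all because Fga had 1 more. Both strands were searched for 4 motifs, whose matches may overlap. The HNF1 motif, GTTAAT and ATTAAC with 1 base of any kind between them and up to 2 mismatches, was found for 9 of 30 members, against 1.19% of all 33469 windows of this length. The C/EBP motif TTNCNNAA was found for 20 of 30 members and in 41.3% of all windows. The HNF4 motif, 2 copies of AGGTCA separated by 1 base and with up to 3 mismatches, was found for 18 members and in 24.9% of all windows, and the STAT motif TTCNNNGAA for 6 members and in 8.87%. These matches are letters in a sequence, not shown to be bound. The HNF1 matches are listed because that motif was the rarest of the 4 over all windows. Capitals mark letters that equal the motif, each match is printed 5′ to 3′ on the gene's own strand, and C5 held 2.
Plg: GacAATgATTAAC
Fga: GgTgATgATTAAC
Fgb: GTcAAatATTAAC
Cfi: GTTAAacATTAAa
C5: GTTAATgtTaAAC
C5: aTTAATaATTAAC
F2: GTTcAatATTAAC
C4bpa: GTTAATcATccAC
F13b: GgTAATtATTAAC
Proc: GTTAtggATTAAC
F13b and one of the C5 matches had 11 of the 12 fixed letters, and the others had 10.

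The full windows of 4 members follow. Kng1 and Klkb1 had no HNF1 match and are shown because they carry the clearest strain differences below. C1r is shown because its strain difference in TPM had opposite signs among numbers 1 to 3 and among numbers 4 and 5. Fgb is shown as a fibrinogen chain with matches to 3 of the 4 motifs. Capitals mark every match to any of the 4 motifs, and each sequence runs 5′ to 3′ on the gene's own strand. On GRCr8 the Kng1 window is chr11:91340099-91340398 on the minus strand and holds 3 C/EBP matches. The Klkb1 window is chr16:53690976-53691275 on the plus strand and holds 2 C/EBP matches. The C1r window is chr4:159098763-159099062 on the plus strand and holds 2 C/EBP matches. The Fgb window is chr2:170700826-170701125 on the minus strand and holds 1 HNF1, 4 C/EBP and 1 STAT matches.
Kng1: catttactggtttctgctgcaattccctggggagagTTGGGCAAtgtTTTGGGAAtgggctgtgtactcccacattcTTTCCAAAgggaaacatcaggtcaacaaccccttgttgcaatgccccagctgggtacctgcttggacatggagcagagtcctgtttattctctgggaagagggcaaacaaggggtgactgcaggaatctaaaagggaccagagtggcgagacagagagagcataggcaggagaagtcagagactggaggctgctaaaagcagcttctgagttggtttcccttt
Klkb1: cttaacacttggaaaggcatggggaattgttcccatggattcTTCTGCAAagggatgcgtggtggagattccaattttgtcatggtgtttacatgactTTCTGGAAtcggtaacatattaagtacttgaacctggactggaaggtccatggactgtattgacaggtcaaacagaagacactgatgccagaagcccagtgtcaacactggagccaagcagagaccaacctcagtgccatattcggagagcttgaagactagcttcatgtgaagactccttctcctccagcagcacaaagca
C1r: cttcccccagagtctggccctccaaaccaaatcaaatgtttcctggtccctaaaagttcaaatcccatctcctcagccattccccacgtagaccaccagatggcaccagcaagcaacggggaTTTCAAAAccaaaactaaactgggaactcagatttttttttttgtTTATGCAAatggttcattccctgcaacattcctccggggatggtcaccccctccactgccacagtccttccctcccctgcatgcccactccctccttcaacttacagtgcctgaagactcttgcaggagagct
Fgb: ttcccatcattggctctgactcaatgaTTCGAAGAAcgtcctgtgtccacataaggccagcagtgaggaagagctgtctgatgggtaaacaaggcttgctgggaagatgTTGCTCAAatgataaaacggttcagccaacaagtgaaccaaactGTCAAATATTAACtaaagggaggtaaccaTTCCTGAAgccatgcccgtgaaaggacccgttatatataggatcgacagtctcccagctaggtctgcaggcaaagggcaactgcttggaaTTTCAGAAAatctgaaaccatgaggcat

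Each sample held 13.8 to 19.6 M reads assigned to genes, and the members were well covered, with no fewer than 231 reads for any of the 36 in any sample. Levels are given in TPM, which corrects for gene length and sets every sample to a common total. Abcc2, the check on the strain labels, stood at 59.98 to 271 TPM in SD and 10.1 to 17.6 TPM in EHBR. Within both strains, samples 4 and 5 differed from samples 1 to 3 in many genes, a division seen in the data that the labels do not name. Mitochondrial transcripts took 12.99% to 13.4% of TPM in SD 1 to 3 and 17.0% to 17.4% in SD 4 and 5, against 14.1% to 15.3% and 15.1% to 16.2% in the same EHBR samples. Strain differences are therefore also given within each set of numbers. The summed level of 7 hepatocyte markers was 138743 to 171827 TPM in SD and 159737 to 183846 TPM in EHBR, so the tissue showed its defining transcripts, and 0 of the 7, Alb the most abundant, passed the test.

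The members together took 2.44% to 3.09% of all TPM. In SD 1 to 5 the shares were 3.01%, 2.83%, 3.09%, 2.52% and 2.44%, and in EHBR 1 to 5 they were 2.69%, 2.81%, 2.68%, 2.82% and 2.69%. SD 1 to 3 had the 3 highest shares and SD 4 and 5 the lowest, with every EHBR sample between them. Mean levels ran from 9.80 TPM for C2 to 4345 TPM for Fgg, and 29 of the 36 members had a mean of at least 100 TPM. In whole liver, fewer cells of a type and less RNA per cell cannot be told apart.

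Between strains, 1 of 36 members passed the test across all 10 samples, Kng1, which was higher in EHBR. The test was limma on log2(TPM + 1), two-sided, with Benjamini-Hochberg adjustment over all 11083 genes and a threshold of 0.05 for the adjusted p. Over all genes 3.82% were called higher and 1.63% lower, so a single call among 36 members is near that background. None of the 36 was called lower. Limma at an unadjusted p under 0.05 also gave 0 lower, against 4.35% of all genes, and 2 higher (Klkb1 and Kng1), against 16.6%. At the adjusted threshold voom on recovered reads gave 0 lower as well, with Proc at -0.27 (adjusted p = 0.113, voom). The members' log2 differences, EHBR minus SD, ran from -0.27 for C1r to 0.77 for Kng1, with a median of 0.08 against 0.15 over all genes. Signs were 28 above and 8 below 0, but this balance followed the deposited table and the scaling used. It was 17 and 19 with FPKM and 8 and 28 with upper-quartile FPKM. In TPM it was 25 and 11 after quantile normalization and 8 and 28 with sample medians set equal, which took the median gene from 0.15 to -0.02. Kng1 was called higher under each of these alternatives.

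**Figure D1:**
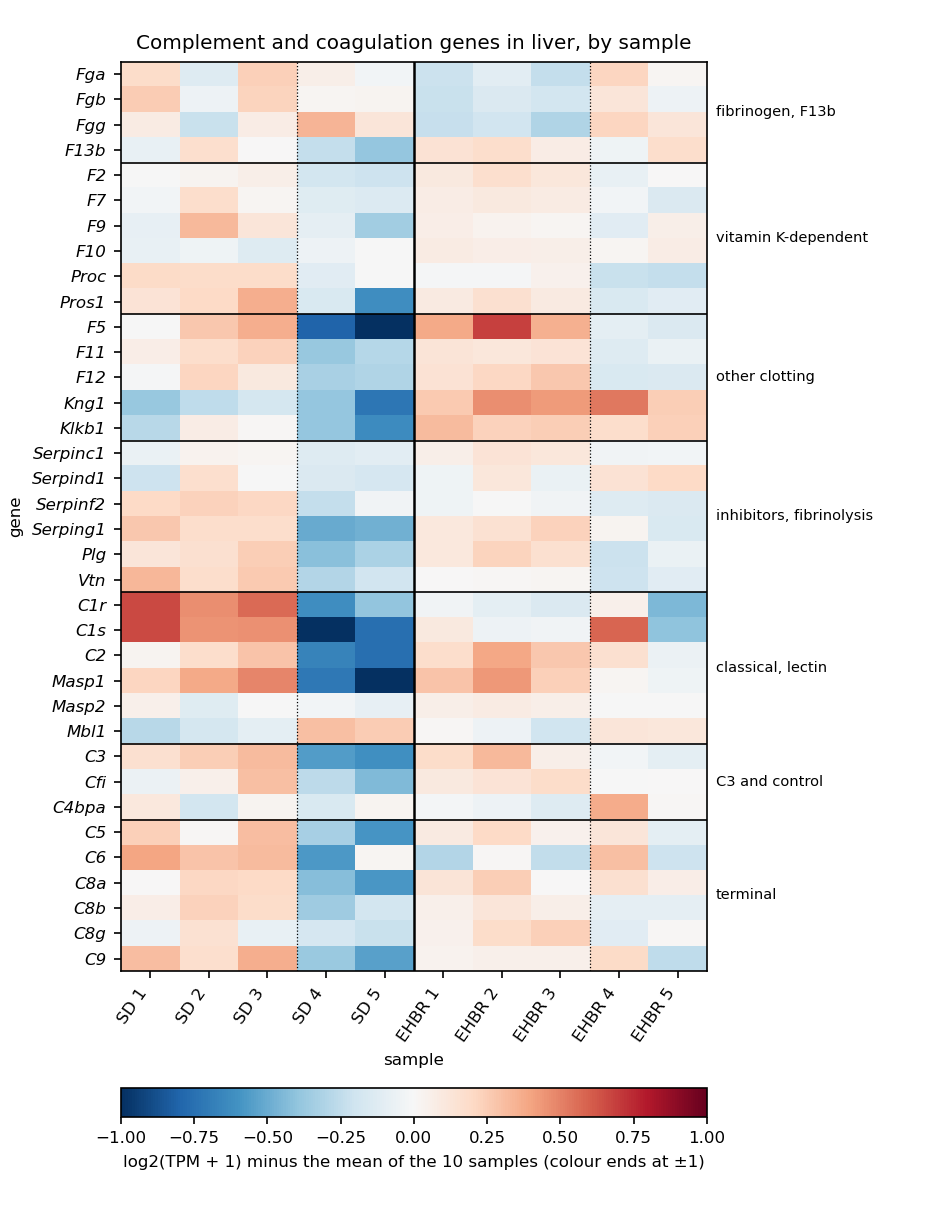
Level of the 36 members that passed the filter in each of the 10 samples, as log2(TPM + 1) minus the gene's mean over the samples; colour ends at ±1, rows are grouped by role, the solid line divides the strains and the dotted lines divide numbers 1 to 3 from 4 and 5. Kng1 is above its mean in every EHBR sample, while many rows, C1s and F5 among them, are lowest in SD 4 and 5.

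The 5 other clotting members hold the contact system and factor V, and they contain the main strain difference. Kng1 encodes kininogen, the carrier of plasma prekallikrein and source of bradykinin. Its gene (ENSRNOG00000030387) lies on chromosome 11 from 81421676 to 81444621 in rn6, the build of the deposited tables. SD samples 1 to 5 showed 343, 375, 396, 343 and 271 TPM, and EHBR samples 1 to 5 showed 536, 617, 601, 644 and 530 TPM. Every EHBR sample lay above every SD sample. Kng1 rose from 346 ± 47.2 to 586 ± 50.5 TPM (mean ± standard deviation, n = 5 per strain), a 1.695-fold higher level. In log2 units the rise was 0.77 with an SE of 0.11 (adjusted p = 0.00224, limma). Among numbers 1 to 3 it was 0.65 (adjusted p = 0.0066) and among numbers 4 and 5 it was 0.94 (adjusted p = 0.0441, limma). RefSeq lists the near copies Kng2 and Kng2l1 beside Kng1, and neither symbol nor gene number occurs in the deposited tables, so how reads were divided among the copies is uncertain.

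Klkb1 encodes prekallikrein, the protease precursor that circulates bound to kininogen. SD samples showed 140, 179, 171, 130 and 109 TPM, and EHBR samples 212, 199, 201, 191 and 200 TPM. The strains did not overlap, and the EHBR samples were close together. The means were 146 ± 28.9 and 201 ± 7.32 TPM (n = 5 per strain), and the log2 difference of 0.48 (SE 0.13) missed the threshold at an adjusted p of 0.0514 (limma). With a term for the 2 sets of numbers in the fit it passed, at an adjusted p of 0.00934 (limma), where 13.6% of all genes were called higher and 3.36% lower. In that fit 3 of 36 members were higher (Kng1, Klkb1 and F5) and 1 was lower (Proc). The division behind this term was drawn from these same data, which limits each call made with it, those of F5 and Proc included. Klkb1 differed by 0.33 among numbers 1 to 3 (adjusted p = 0.108) and by 0.71 among numbers 4 and 5 (adjusted p = 0.049, limma). F11, which lies 4000 bases from Klkb1 on chromosome 16 and encodes a related clotting protease, differed by 0.08 (SE 0.13, adjusted p = 0.754, limma).

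F5 encodes factor V, the cofactor of factor Xa. SD samples showed 24.4, 29.8, 31.8, 13.7 and 11.7 TPM, and EHBR samples 32.2, 39.9, 31.6, 22.9 and 22.1 TPM. Samples 4 and 5 were the lowest of each strain, and the strains overlapped. Across all samples the log2 difference was 0.47 (SE 0.28, adjusted p = 0.355). Once the fit held a term for the numbers, limma gave 0.0295, past the threshold, and among numbers 4 and 5 F5 was also called, at 0.79 (adjusted p = 0.049, limma). F12 encodes the factor XII that starts the contact system and was the most abundant of these 5 by its mean over the 10 samples. It showed 497, 582, 537, 400 and 408 TPM in SD and 556, 578, 606, 453 and 453 TPM in EHBR, with samples 4 and 5 lowest in both strains. The strains differed by 0.13 in log2 units (SE 0.13, adjusted p = 0.584, limma).

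**Figure D2:**
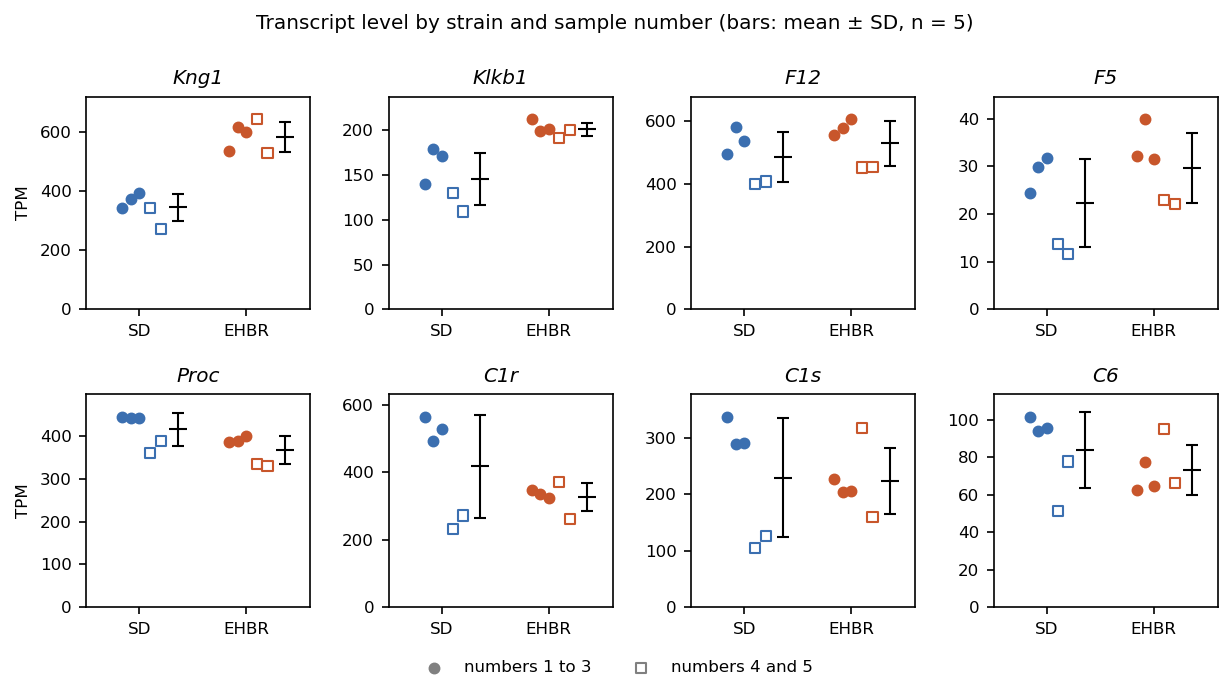
TPM in each sample for Kng1, Klkb1, F12, F5, Proc, C1r, C1s and C6, by strain; filled circles are samples 1 to 3, open squares samples 4 and 5, and bars give the mean ± standard deviation (n = 5). The 5 EHBR values of Kng1, 530 to 644 TPM, lie above all SD values, while C1r and C1s spread widely in SD, with samples 4 and 5 at the bottom.

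Among the 6 vitamin K-dependent members, no gene passed the test across all samples, and the median log2 difference was 0.03. F2 encodes prothrombin and was the most abundant of them, at 1548, 1580, 1612, 1369 and 1343 TPM in SD and 1658, 1740, 1682, 1474 and 1555 TPM in EHBR. Its strain means of 1491 ± 125 and 1622 ± 106 TPM (n = 5 per strain) differed by 0.12 in log2 units (SE 0.09, adjusted p = 0.458, limma), and the strains overlapped. F10, which encodes factor X, had no overlap between strains, at 387 to 422 TPM in SD and 430 to 449 TPM in EHBR. The size of that difference was 0.12 (SE 0.07), and the adjusted p was 0.333 (limma). In all, 3 of 36 members (Klkb1, Kng1 and F10) lay higher in EHBR with no overlap, against 6.45% of all genes, and 0 lay lower with no overlap, against 2.02%.

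Proc encodes protein C, the protease that inactivates factors Va and VIIIa. SD samples showed 444, 444, 443, 360 and 389 TPM, and EHBR samples 386, 388, 401, 334 and 330 TPM. Each EHBR value was below each SD value within both sets of numbers, while across all samples the strains overlapped. The log2 difference was -0.18 (SE 0.10, adjusted p = 0.321), and a fit that includes the numbers called it, at an adjusted p of 0.0408 (limma). It was -0.18 among numbers 1 to 3 and -0.17 among numbers 4 and 5, neither past the threshold. F7, F9 and Pros1, which encode factor VII, factor IX and protein S, each had a log2 difference of 0.03.

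The 3 fibrinogen chains were the most abundant clotting transcripts and had negative log2 differences that did not pass the test. They lie within 1 stretch of chromosome 2, with Fgg and Fga 11728 bases apart and Fga and Fgb 13352 bases apart. Fgg showed 4542, 3692, 4522, 5436 and 4667 TPM in SD and 3661, 3768, 3499, 4995 and 4668 TPM in EHBR. EHBR 1 to 3 stood near the lowest SD sample, while EHBR 4 and 5 stood within the SD range. The log2 differences were -0.15 for Fgg (SE 0.14, adjusted p = 0.533), -0.13 for Fga (SE 0.12, adjusted p = 0.535) and -0.19 for Fgb (SE 0.10, adjusted p = 0.315, limma). After quantile normalization they were 0.11, 0.01 and -0.08, so the sign for Fgg and Fga is not settled. With FPKM, upper-quartile FPKM, sample medians set equal, the length trend removed and voom, all 3 chains stayed below 0. F13b, the carrier subunit of the crosslinking factor XIII, differed by 0.21 (SE 0.11, adjusted p = 0.292, limma).

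Inhibitors and proteins of fibrin breakdown showed no call among 6 members, with a median log2 difference of 0.09. Serpinc1, antithrombin, stood at 954 ± 50.1 and 1022 ± 56.3 TPM in SD and EHBR, and Plg, plasminogen, at 1287 ± 258 and 1348 ± 162 TPM (n = 5 per strain). Vtn, vitronectin, which stabilizes the plasminogen activator inhibitor and blocks the terminal complement complex, was the most abundant. It showed 4524, 4049, 4313, 2926 and 3146 TPM in SD and 3600, 3625, 3632, 3116 and 3329 TPM in EHBR. The EHBR values all fell between those of SD 4 and 5 and those of SD 1 to 3, apart from EHBR 4, which was below SD 5. Serpinf2, the antiplasmin gene, differed by -0.14 (SE 0.10, adjusted p = 0.444, limma). With upper-quartile FPKM, which puts the median gene at 0.02 in place of 0.15, Serpinf2 at -0.33 and Proc at -0.34 were called lower (adjusted p = 0.0227 for both, limma). That fit called 241 of all 11083 genes lower.

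In the classical and lectin pathway, 0 of 6 tested members passed across all samples, and 2 of them differed between strains among numbers 1 to 3. C1r and C1s encode the paired proteases of the C1 complex and lie 6763 bases apart on chromosome 4, on opposite strands. C1r showed 562, 491, 527, 232 and 271 TPM in SD and 348, 334, 322, 370 and 260 TPM in EHBR. SD 1 to 3 lay above every EHBR sample and SD 4 below every EHBR sample. C1s showed 336, 290, 291, 105 and 125 TPM in SD and 226, 205, 206, 317 and 160 TPM in EHBR, with the same arrangement among numbers 1 to 3 and both of SD 4 and 5 below every EHBR sample.

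Among numbers 1 to 3, C1r fell by 0.65 (log2 units, SE 0.08, adjusted p = 0.00386) and C1s fell by 0.52 (SE 0.09, adjusted p = 0.0158, limma). Together with C6 these were the 3 of 36 members called lower in those samples, against 2.17% of all genes, and Kng1 was the 1 called higher, against 4.35%. Among numbers 4 and 5 the log2 differences were 0.31 for C1r (adjusted p = 0.311) and 0.97 for C1s (adjusted p = 0.103, limma). The first of these depended on the scaling, at 0.02 with upper-quartile FPKM and -0.01 with sample medians set equal, while C1s stayed at 0.66 and 0.65. The change in the strain difference between the sets was 0.96 for C1r (SE 0.20, adjusted p = 0.0823) and 1.49 for C1s (SE 0.33, adjusted p = 0.0833, limma), and neither passed the threshold. In 19 of 20 alternatives neither passed. Both did without EHBR 5, at 1.21 (adjusted p = 0.026) and 1.98 (adjusted p = 0.00495, limma), but that leaves EHBR 4, the highest EHBR sample for both genes, as the only sample of its arm. Summed transcripts of 8 stellate and mesenchymal markers in SD were 143 to 174 TPM in samples 1 to 3 and 84.3 to 94.3 TPM in samples 4 and 5. In EHBR they were 156 to 172 and 134 to 143 TPM. Such a fall in SD was not particular to these markers, since 51.4% of all genes lay lower in SD 4 and 5 with no overlap. Among numbers 1 to 3, where C1r, C1s and C6 were called lower, 4 of 5 erythroid markers were called higher (limma), with sums of 440 to 744 TPM in SD and 1435 to 1682 TPM in EHBR. Among numbers 4 and 5, 0 of the 5 were called, with sums of 705 to 1167 TPM in SD and 675 to 782 TPM in EHBR. The change between the sets passed for 1 erythroid marker, Hba-a2, an alpha-globin (adjusted p = 0.0388, limma). Of 6 endothelial markers 3 were called higher among numbers 1 to 3 and 0 among numbers 4 and 5. Their median log2 difference was alike in both, at 0.49 among numbers 1 to 3 and 0.46 among numbers 4 and 5. The change between the sets passed for 0 of the 6. The part of these markers in the result was not tested.

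Masp1, a protease of the lectin pathway, followed a like course in SD, at 40.4, 45.3, 49.0, 20.7 and 13.5 TPM, against 42.3, 47.0, 40.9, 35.0 and 33.5 TPM in EHBR. Its change in strain difference between the sets was 1.04 (adjusted p = 0.0833, limma), which missed the threshold. Without SD 4 it was 1.33 (adjusted p = 0.0285, limma), but SD 5, with the lowest Masp1 value, was then the only sample of its arm, and the other arms supplied the spread. Masp2, its partner protease, varied little, at 157 to 177 TPM in SD and 170 to 181 TPM in EHBR. Mbl1, a mannose-binding lectin, differed by 0.00 in log2 units (SE 0.13, adjusted p = 0.996, limma). No row carried the symbol Mbl2. A row with Mbl2's gene number under a placeholder symbol held 2.53 to 5.53 TPM and was not counted.

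C2 and Cfb, the related proteases of the classical and alternative C3 convertases, are neighbours on chromosome 20, and their values are uncertain. C2 showed 5.20 to 11.7 TPM in SD and 9.08 to 12.7 TPM in EHBR. Cfb had 2 overlapping gene models, listed at 0 in 9 and in all 10 samples, and the longer one overlaps most of the C2 gene. Both Cfb rows failed the filter, and no fold is given for them.

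No member of the central and alternative group passed across all samples. C3, the protein on which all complement pathways meet, showed 2674, 2846, 2982, 1627 and 1567 TPM in SD and 2713, 3005, 2500, 2350 and 2239 TPM in EHBR. SD 4 and 5 lay below every other sample. The log2 difference was 0.18 (SE 0.20, adjusted p = 0.613) across all samples and 0.52 among numbers 4 and 5 (adjusted p = 0.0528, limma). Cfi, which cleaves C3b, differed by 0.16 (SE 0.13, adjusted p = 0.478), and C4bpa, a cofactor for Cfi, by 0.07 (SE 0.11, adjusted p = 0.706, limma).

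Of the 6 members of the terminal pathway, 0 passed across all samples, and the median log2 difference was 0.09. C6 encodes a component of the membrane attack complex. It showed 101, 94.0, 95.7, 51.1 and 77.7 TPM in SD and 62.4, 77.5, 64.4, 94.9 and 66.3 TPM in EHBR. In numbers 1 to 3 all EHBR samples were below all SD samples, and C6 fell by 0.51 there (log2 units, SE 0.10, adjusted p = 0.0264, limma). That call was lost in 5 alternatives and held in 11. In numbers 4 and 5 the strains overlapped, with a log2 difference of 0.33 (adjusted p = 0.403, limma), which was 0.01 with sample medians set equal. C9, which polymerizes to form the pore, was the most abundant of the group. C9 showed 881, 802, 918, 551 and 490 TPM in SD and 729, 738, 740, 812 and 598 TPM in EHBR, and the strains differed by 0.03 in log2 units (SE 0.18, adjusted p = 0.938, limma). C5, C8a, C8b and C8g had log2 differences of 0.14, 0.24, 0.02 and 0.15.

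**Figure D3:**
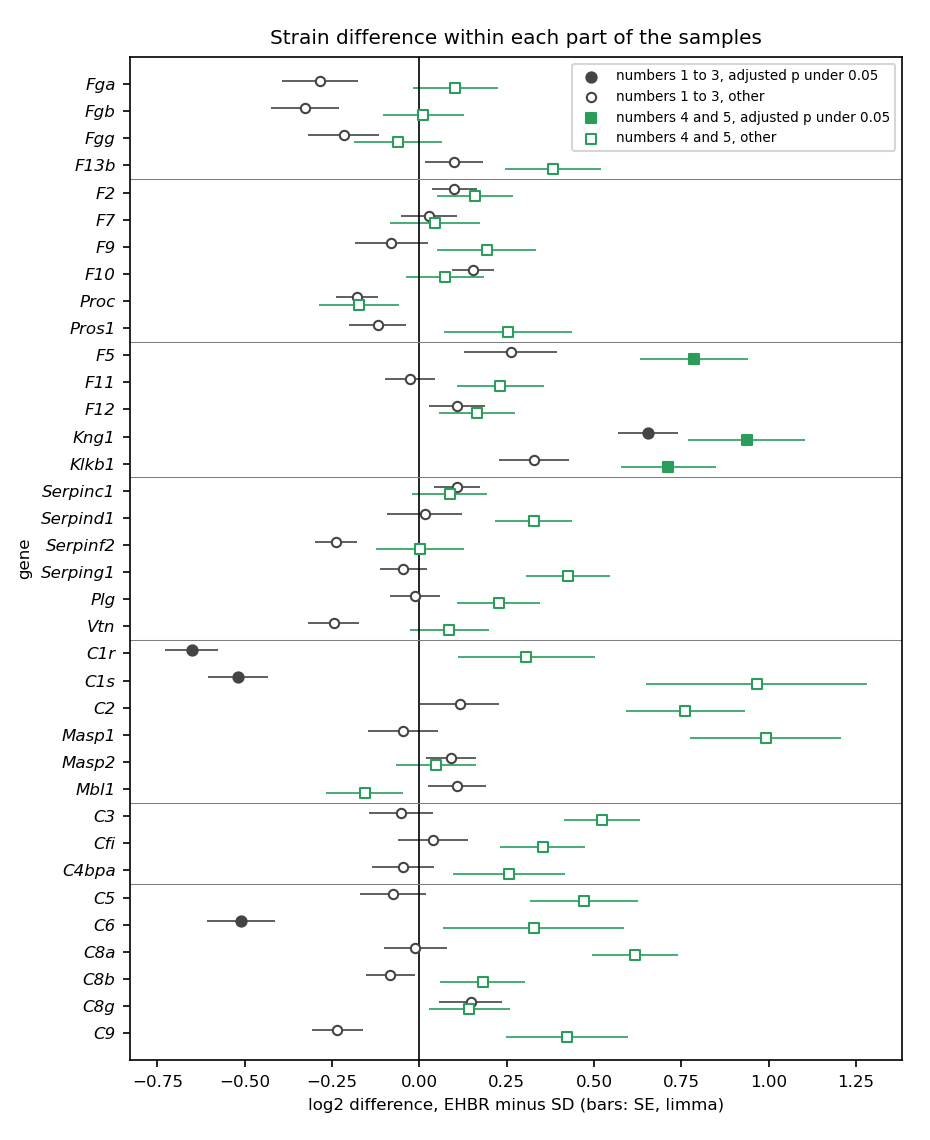
Log2 difference in TPM + 1, EHBR minus SD, for each member among samples 1 to 3 (dark circles, 3 per strain) and among samples 4 and 5 (green squares, 2 per strain), with limma's standard error as bars and filled symbols for an adjusted p under 0.05. C1r, C1s and C6 lie at -0.65, -0.52 and -0.51 among samples 1 to 3 and, in TPM, above 0 among samples 4 and 5 (C1r at -0.01 with sample medians set equal, and C1r and C6 at -0.02 and -0.01 with the length trend removed), while Kng1 is at 0.65 and 0.94.

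In TPM, the balance of signs of the strain difference was unlike in the 2 sets of numbers, but this followed the table and scaling used. Among numbers 1 to 3, 15 members lay above and 21 below 0 with a median of -0.04, and among numbers 4 and 5, 33 lay above and 3 below with a median of 0.24, against medians of 0.07 and 0.27 over all genes. Among numbers 4 and 5 the balance was 25 above and 11 below with FPKM, and 32 and 4 after quantile normalization. It was 16 and 20 with upper-quartile FPKM (median -0.06), and 15 and 21 both with sample medians set equal (median -0.07) and with the length trend removed (median -0.06). Among numbers 1 to 3 it was 17 and 19 after quantile normalization and 12 and 24 under each of the others. In TPM with no overlap between strains, 6 members lay higher and 8 lower among numbers 1 to 3, against 20.4% and 8.76% of all genes. Among numbers 4 and 5 these were 23 and 2 (Mbl1 and Proc), against 53.0% and 11.7%. In the second set limma called Klkb1, Kng1 and F5 higher, against 4.15% of all genes, and 0 members lower, against 1.01%. At an unadjusted p under 0.05 limma also gave 0 lower, against 5.19%. At the adjusted threshold voom gave 0 lower, with Proc at -0.33 (adjusted p = 0.138, voom). With 2 samples per strain the 3 higher calls by limma lay close to the threshold. Of them, 0 passed with FPKM, with no filter, with quantile normalization or with sample medians set equal. The change in strain difference between the sets passed for 0 of 36 members in either direction, against 0.208% of all genes higher and 0.0632% lower, and for 0 by voom. At an unadjusted p under 0.05 it was higher for 17 members and lower for 0 (limma), against 16.4% and 3.87% of all genes. The median change was 0.31 over the members and 0.19 over all genes, and 0.07 and -0.06 with sample medians set equal. In TPM it was 0.80 over the 6 classical and lectin members, 0.59 over the 6 terminal members and 0.04 to 0.31 over the other roles. With sample medians set equal it was 0.56 over the classical and lectin members and 0.35 over the terminal members. The other roles then ran from -0.20 to 0.07.

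In TPM, the shift between sets was larger in SD than in EHBR. The log2 level of samples 4 and 5 minus that of samples 1 to 3 had a median of -0.42 over the members in SD and -0.11 in EHBR, against -0.32 and -0.12 over all genes. With FPKM the members' medians were -0.28 and -0.05, against -0.18 and -0.06 over all genes. With sample medians set equal they were -0.01 and 0.06, against 0.09 and 0.05 over all genes. The size of this shift thus followed the table and scaling used. Under each scaling the members' median stayed below that of all genes in SD and close to it in EHBR. In TPM it was below 0 for 33 of 36 members in SD and 27 in EHBR, against 75.4% and 65.5% of all genes. In SD, 28 of 36 members lay lower in samples 4 and 5 with no overlap, against 51.4% of all genes, and 2 lay higher (Mbl1 and Fgg), against 11.2%. The largest of these differences in SD were -1.40 for C1s, -1.37 for Masp1, -1.11 for F5 and -1.07 for C1r. In EHBR, 19 members lay lower with no overlap, against 33.6% of all genes, and 6 lay higher (Serpind1, C4bpa, Fgb, Mbl1, Fga and Fgg), against 1326 of the 11083 genes. The fibrinogen chains were among the 9 members above 0 in EHBR, with Fga, Fgb and Fgg at 0.30, 0.22 and 0.41, against -0.08, -0.12 and 0.25 in SD. No test is given for this division, since it was drawn from these data.

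**Figure D4:**
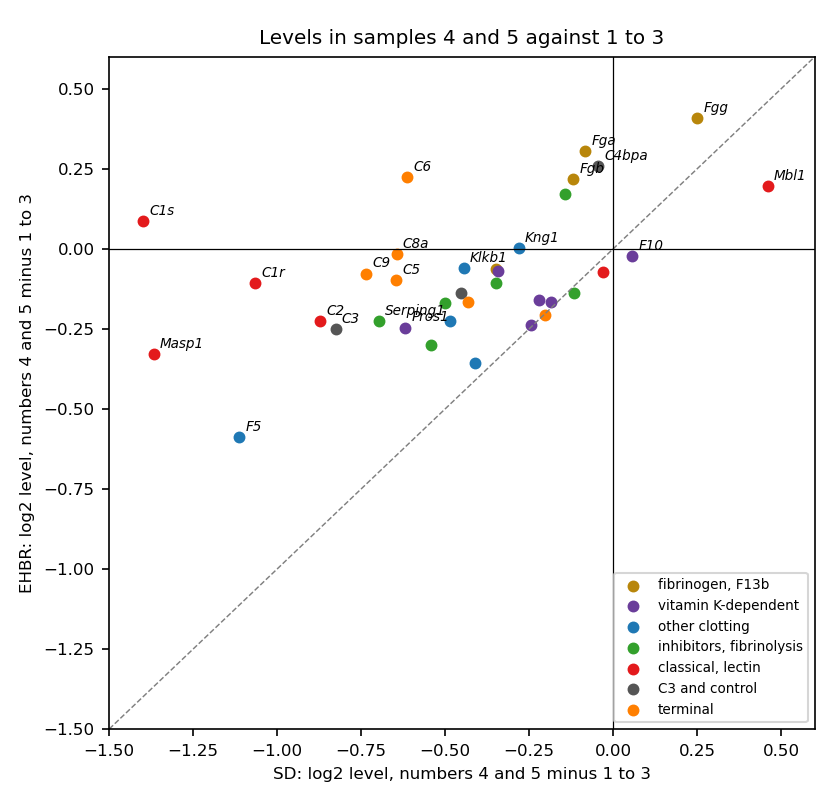
Log2 level in samples 4 and 5 minus samples 1 to 3, in SD (horizontal axis) and EHBR (vertical axis), 1 point per member, coloured by role; the dashed line marks equal values. Of the 36 points, 31 lie above the line, and C1s is the farthest from it, at -1.40 in SD and 0.09 in EHBR.

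Other genes of the same pathways, and genes related to them, are given beside the 3.82% of all genes called higher and 1.63% called lower across all samples. Of 24 tested complement genes outside the list, 0 were called by limma, and the most abundant, Clu, which encodes the plasma chaperone clusterin, differed by -0.20 (SE 0.12, adjusted p = 0.365, limma). Of 19 tested clotting and related genes outside the list, 2 were higher and 1 was lower, a larger share than over all genes but one that rests on few calls. Fgl1, a fibrinogen-related secreted protein of hepatocytes, fell from 600 ± 111 to 216 ± 60.5 TPM (n = 5 per strain, log2 difference -1.49, SE 0.19, adjusted p = 0.00102, limma). Hgfac, the activator of hepatocyte growth factor, rose by 0.42 (SE 0.08, adjusted p = 0.0121), and Lman1, a cargo receptor that carries factors V and VIII out of the endoplasmic reticulum, rose by 0.59 (SE 0.12, adjusted p = 0.0147, limma). Lman1 went from 32.3 ± 5.03 to 48.8 ± 4.86 TPM.

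Of 8 genes listed for the vitamin K cycle and related proteins 0 were called. The most abundant, Vkorc1, the epoxide reductase of that cycle, stood at 114 ± 13.8 TPM in SD and 117 ± 6.65 TPM in EHBR. That list also holds Proz, protein Z, a vitamin K-dependent plasma protein that is counted among the 19 clotting and related genes as well. Of 17 tested genes of the acute phase and interleukin-6 response, 1 was higher, Il1rap, the interleukin-1 receptor accessory protein, by 0.48 in log2 units (SE 0.10, adjusted p = 0.0194, limma). Of 11 tested hepatocyte transcription factors 0 were called, the most abundant being Cebpa at a log2 difference of 0.18 (adjusted p = 0.592, limma).

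Markers of other liver cells gave these values beside the members' results. Endothelial markers summed to 73.0 to 91.3 TPM in SD and 90.9 to 125 TPM in EHBR, and 2 of 6 tested, Stab2 (0.92) and Kdr (0.66), were called higher by limma. Of 5 erythroid markers 1 was higher across all samples, Slc4a1 at 0.71, with sums of 440 to 1167 TPM in SD and 675 to 1682 TPM in EHBR. Of 8 Kupffer cell markers 0 were called, with sums of 430 to 556 and 430 to 762 TPM, the most abundant being C1qa. The 8 stellate, 2 cholangiocyte, 3 platelet and 2 lymphocyte markers tested gave 0 calls across all samples, with Col3a1, Epcam, Itga2b and Nkg7 the most abundant of each, and the platelet gene Gp1bb was listed at 0 in every sample. The part of these cells in the members' values was not tested.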

How the data were processed

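Per the labels' protocols, liver RNA was taken up in TRIzol, selected for poly(A) and made into directional libraries. Tools named in the submitters' processing notes are featureCounts 1.6.3, HISAT2 2.1.0, FastQC 0.11.7 and Trimmomatic 0.38, with rn6 as the genome build. Which strand setting featureCounts had is not given, which leaves genes that overlap on both strands uncertain. The authors deposited 3 tables of 32883 genes, in TPM, in FPKM and in upper-quartile FPKM. The TPM table is not a rescaling of the FPKM table. Genes above 0 numbered 18443 in TPM and 18036 in upper-quartile FPKM. A step from TPM to FPKM is therefore not a change of scale alone.

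Members and lists were chosen with earlier results of these data known. Members were matched by symbol in the TPM table. A gene was kept if 5 or more of the 10 samples reached 1 TPM, 1 was added as a pseudocount, and limma 3.58.1 with a variance trend (R 4.3.3) compared 5 EHBR with 5 SD samples, with strain as the factor. Fold changes on the log2(TPM + 1) scale understate changes of low genes. The same fit was made within numbers 1 to 3 and within 4 and 5, and an interaction term tested the difference between them. Named members were those called in any of these fits or with a term for the numbers, plus the most abundant of each role. From every other list the called genes, or the most abundant by its mean over the 10 samples where none was called, were named.

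Whole reads were recovered from the authors' deposited upper-quartile FPKM for 18036 of 18036 genes above 0, within a tolerance of 0.0002 reads, and held at least 99.98% of the implied totals of 13.8 to 19.6 M per sample. They gave the depth and the voom alternative. On data simulated for 11083 genes, the strain test recovered 58% at a log2 change of 0.5, 90% at 1, and 100% at 2 and at 3, with 14 false calls. The test of the difference between the parts recovered 4%, 46%, 86% and 98%, with 9 false calls. Recovery by the strain test may be lower in the real samples. Its error there also takes in the shift between numbers 1 to 3 and 4 and 5. For F5, which had such a shift, the SE was 0.28, against 0.13 with a term for the numbers. Alternatives were FPKM, upper-quartile FPKM, pseudocounts of 0.1 and 5, quantile normalization, median centring, no filter, a filter at a mean of 5 TPM, a lowess length trend removed, voom, a term for the numbers, a replicate block, and fits without single samples. Tables and figures were made in Python 3.11.15 (numpy 2.4.6, pandas 2.3.3, matplotlib 3.10.9). No genome was used here, and promoter windows came from RefSeq tables of GRCr8.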

Additional observations from a re-analysis of the deposited data

Results flagged for a closer look

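Each member's 5 samples per strain were searched for 1 sample far from the other 4, by the gap to its nearest neighbour over the whole range, with a limit of 0.71. Of 72 such groups, 2 held one, and chance alone gives about 1 in 20. F9, factor IX, stood at 318 TPM in EHBR 4, below the 349 to 361 TPM of the other EHBR samples. C4bpa, the alpha chain of the C4b-binding protein, stood at 480 TPM in EHBR 4, above the 338 to 374 TPM of the others. Neither gene passed the strain test with all samples.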

How the results depend on the processing

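Kng1 was called higher in every fit across both sets of numbers, at 0.59 with the length trend removed to 0.82 without SD 3. Leaving out 1 sample at a time gave 1 to 2 members called higher, the second being Klkb1 without SD 2 or SD 3, and medians from 0.04 to 0.13. Over all 11083 genes 439 were called higher without SD 2 and 429 without SD 3. Klkb1 also made 2 higher calls with a mean of at least 5 TPM, against 377 of 7149 genes. The term for the numbers gave 3 higher and 1 lower. With the length trend removed as well, added after seeing the data, there were 2 higher and 4 lower (Proc, Serpinf2, Fga at -0.31 and Fgb at -0.38) and a median of -0.095. Over all 11044 genes that fit called 567 higher and 603 lower. Upper-quartile FPKM and the length trend alone each gave 2 lower (Proc and Serpinf2), against 241 of 11083 and 291 of 11044 genes. The members' median of 0.08 became -0.014 with FPKM, -0.013 with voom, -0.083 with upper-quartile FPKM, -0.090 with median centring and -0.095 with the length trend removed. In the same order the median over all genes went from 0.15 to 0.07, 0.10, 0.02, -0.02 and 0.005. The members' median lay below that of all genes in each of these fits. After quantile normalization it lay above, at 0.10 against 0.01. Numbers 1 to 3 alone gave -0.037 with 3 lower, and C1s turned from 0.07 to -0.52. Numbers 4 and 5 alone gave 0.24 with 3 higher. The cause of these shifts was not tested.

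Among numbers 1 to 3, voom gave 5 members lower in place of 3, and leaving out 1 sample gave 1 (without EHBR 3) to 5 (without SD 2). Over all 11083 genes 269 were lower with voom, 111 without EHBR 3 and 251 without SD 2. C1r was called lower there in all 16 alternatives, while C1s missed the threshold in 3 and C6 in 5. Both missed it with no filter. Among numbers 4 and 5, in place of 3 higher there were 0 with FPKM, upper-quartile FPKM, no filter, quantile normalization, median centring and the length trend removed, 1 with a pseudocount of 0.1 and 7 with a mean of at least 5 TPM. Over all genes, FPKM gave 12 of 11083 higher and no filter gave 0 of 18443. The pseudocount of 0.1 gave 296 of 11083 and the mean of at least 5 TPM gave 541 of 7149. Leaving out 1 of those samples gave 0 to 1, the 1 being C1s at 1.46 without EHBR 5, and such a fit has 1 sample in an arm, assumed to vary like the others. The change between the sets passed for 0 members, or for 1 without SD 4 and 2 without EHBR 5.

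With the replicate number as a block, Kng1 and Klkb1 were called higher, or 2 in place of 1, against 639 of 11083 genes. Samples of equal number deviated together across genes at 0.13, 0.29, 0.07, 0.25 and 0.27, so the numbers were not taken to pair the samples. SD 1, 2 and 4 and EHBR 5 correlated best with their own number and the other 6 samples did not, which is at most a hint from the data. Each member tested had at least 231 reads in every sample, and counting error was not compared with the spread among samples.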
